A study of Mus musculus with 9 samples.

Results

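Lenses of newborn mice carrying either of a pair of Cre transgenes were compared, as one group, with lenses of non-transgenic *FVB/N* mice. The transgenic group held 6 pools, 3 from hemizygous *Le-Cre* and 3 from hemizygous *P0-3.9GFPCre* newborns, and the control group held 3 *FVB/N* pools, so all 9 RNA-Seq libraries of the series were used. A change was counted as shared when the mean of each line lay on the same side of *FVB/N*. Each pool combined 6 whole lenses from 3 mice collected on the day of birth, and all mice had an *FVB/N* background. Both transgenes place Cre recombinase and green fluorescent protein (GFP) under fragments of the *Pax6* P0 promoter, which is active in the lens placode and later in the lens epithelium. The *Le-Cre* construct makes CRE and GFP as separate proteins from 1 transcript, and *P0-3.9GFPCre* makes a fusion of them. Each transgenic line was 1 established strain received from another laboratory, its hemizygotes came from crosses of homozygous mice, and the *FVB/N* mice were bought from a vendor, so a difference between colonies and an effect of a transgene cannot be told apart. The CRE and GFP transcripts themselves were not analysed here.

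Cre recombinase cuts DNA at loxP sites and, at high levels, can also act on similar sequences in a normal genome. Cells answer DNA breaks through p53, whose targets include the cell cycle inhibitor *Cdkn1a* (p21), and they answer unfolded or damaged proteins through heat shock factors, which raise chaperones. Among these chaperones are the small heat shock proteins, a family that includes the α-crystallins, abundant proteins of the lens fibre cell. Comparing both lines at once with *FVB/N* asks which transcripts differ from *FVB/N* in common in 2 lines that carry different constructs.

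Sequencing depth, as the total of the read numbers that RSEM estimated per gene (expected counts), ranged from 20670968 to 28098059 in the transgenic pools (median 22953528) and between 23299676 and 26959813 in controls (median 25450719). Crystallin genes took 39.1% to 42.3% of the counts in transgenic pools and 40.4% to 43.0% in *FVB/N* pools, so the labelled tissue matched its defining transcripts. Summed markers of surface and corneal epithelium stayed at or under 0.317 CPM (counts scaled to a common library size) in every pool, and *Krt12*, *Krt14*, *Trp63* and *Cldn4* had 0 counts in all 9. Vascular endothelium markers, 8 of 8 tested, summed to 107 to 124 CPM in *FVB/N*, 72.8 to 120 CPM in *P0-3.9GFPCre* and 102 to 121 CPM in *Le-Cre* pools, and 0 of the 8 had an unadjusted p under 0.05. Macrophage markers summed to at most 5.34 CPM, neural retina markers to at most 10.2 CPM, pericyte and mesenchyme markers to at most 45.2 CPM, pigment cell markers to at most 48.0 CPM and erythroid markers to at most 120 CPM, with ranges that overlapped between the groups in each case. Single markers lower at an unadjusted p under 0.05 were *Mitf* of the pigment list and *Col1a1* of the mesenchyme list, and their part in the results was not tested.

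The pools were not matched for the sex of the pups. Summed Y-linked transcripts were 132, 194 and 126 CPM in the *FVB/N* pools, 53.9, 135 and 1.66 CPM in the *P0-3.9GFPCre* pools and 1.53, 71.9 and 0.633 CPM in the *Le-Cre* pools. *Xist*, the RNA that silences the inactive X chromosome in females, was at 477, 0.473 and 482 CPM in *FVB/N* pools and at 591 to 1423 CPM in transgenic pools. The transgenic group thus had more female RNA, so a fit with the Y-linked level as a covariate was made as well. The covariate was the log2 of the summed Y-linked CPM, which is not proportional to the share of male RNA in a pool. Values from that fit stand beside the gene lists and several single genes. Over all genes, 834 of 15557 had an unadjusted p under 0.05 in it, in either direction. The part of pup sex in the results was examined only in that way.

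Of the 15557 genes that passed a filter on low counts, 1 passed the cutoff, which asked for a 1.5-fold change or more, an adjusted p no higher than 0.05 and both line means on 1 side of *FVB/N* (0.00643% of genes tested). This gene was *Hspb1*, which encodes the small heat shock protein HSP25, and it was higher in the transgenic lenses. A second gene, *Stk40*, which encodes a serine/threonine kinase-like protein, passed the adjusted p but not the fold. No gene was lower past the cutoff. Unadjusted p-values under 0.05 were found for 501 higher genes (3.22%) and 525 lower genes (3.37%), or 1026 in all, and DESeq2's Wald test put 24 genes higher and 6 lower past the same cutoff. All 6 transgenic pools lay above all 3 *FVB/N* pools for 258 genes (1.66%) and below them for 288 genes (1.85%). The median log2 fold change over all tested genes was 0.00014, and 90% of genes lay between −0.41 and 0.54.

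*Hspb1* lies on chromosome 5 from 135887919 to 135889563 of GRCm38, on the + strand. It had 36.04, 36.9 and 38.6 CPM in the *FVB/N* pools. It had 101, 62.2 and 109 CPM in the *P0-3.9GFPCre* pools and 120, 84.1 and 118 CPM in the *Le-Cre* pools. Every transgenic pool stood above every *FVB/N* pool, and the lowest transgenic pool was *P0-3.9GFPCre* replicate 2. The log2 fold change was 1.42 ± 0.18 (estimate ± standard error, SE; 2.67-fold), at an adjusted p of 0.0400 from the quasi-likelihood test of edgeR, adjusted by the Benjamini-Hochberg method. Against *FVB/N*, the difference was 1.29 on the log2 scale in *P0-3.9GFPCre* (adjusted p = 0.239, edgeR) and 1.53 in *Le-Cre* (adjusted p = 0.0331, edgeR), and these values share their 3 control pools. The direct difference between the lines was 0.24 ± 0.19 (SE, adjusted p = 0.796, edgeR).

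The call for *Hspb1* was lost in several other fits. With 1 coefficient per line, averaged, the adjusted p was 0.0709 in edgeR at a log2 fold change of 1.41. With the Y-linked level as a covariate its log2 fold change was 1.048, at an adjusted p of 0.0979 in edgeR, the smallest adjusted p of any gene in that fit. Leaving out any single pool other than *P0-3.9GFPCre* replicate 2 also took the adjusted p above the threshold, to between 0.0997 and 0.293 in edgeR, while the log2 fold change stayed between 1.35 and 1.46. Within the transgenic group, the pools with the most Y-linked RNA had the least *Hspb1*, with 62.2 CPM at a Y-linked level of 135 CPM and 120 CPM at a level of 1.53 CPM. *P0-3.9GFPCre* replicate 2 had a Y-linked level inside the *FVB/N* range and *Hspb1* above that range.

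**Figure D1:**
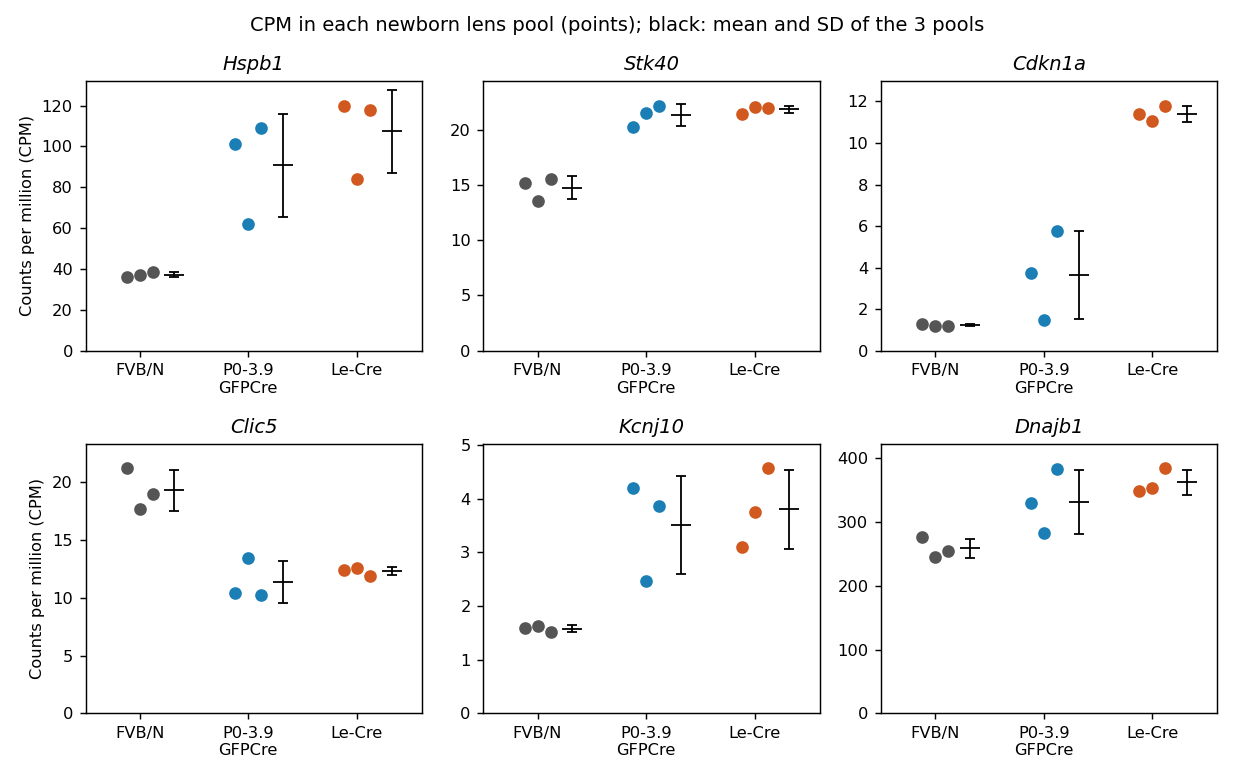
CPM (vertical axes, starting at 0) of 6 genes in each pool of 6 newborn lenses, with the mean and SD of the 3 pools of each line in black. *Hspb1*, *Stk40*, *Cdkn1a*, *Kcnj10* and *Dnajb1* lie higher in all 6 transgenic pools than in the 3 *FVB/N* pools and *Clic5* lies lower in all 6.

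**Figure D2:**
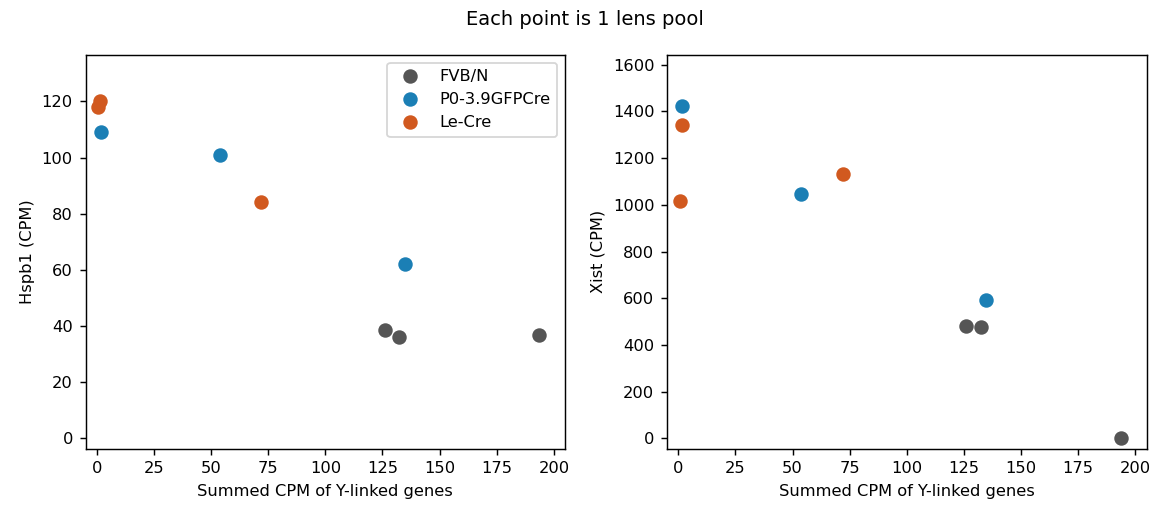
*Hspb1* (left) and *Xist* (right) in CPM against the summed CPM of Y-linked genes, with 1 point per pool coloured by line. The *FVB/N* pools sit at 126 to 194 CPM of Y-linked RNA with *Hspb1* under 39 CPM, and the transgenic pools fall from 120 CPM of *Hspb1* at a low Y-linked level to 62.2 CPM at 135 CPM.

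The promoter sequence of *Hspb1* is shown because the gene is the shared change that passed the cutoff, with that of *Hspb8*, the family member with the next smallest p. Each run covers 250 bases before and 50 bases from the annotated RefSeq start site on GRCm38.p6, read 5′ to 3′ on the gene's strand. Capitals mark the letters GAANNTTC, a head-to-head pair of the units that heat shock factors bind, which read the same on both strands.
*Hspb1* (chr5:135887669-135887968, + strand): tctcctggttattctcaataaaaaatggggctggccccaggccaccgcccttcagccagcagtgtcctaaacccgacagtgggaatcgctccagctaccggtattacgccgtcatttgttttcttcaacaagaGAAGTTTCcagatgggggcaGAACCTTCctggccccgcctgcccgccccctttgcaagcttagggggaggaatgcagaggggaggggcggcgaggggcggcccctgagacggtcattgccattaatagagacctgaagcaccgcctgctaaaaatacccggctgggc
*Hspb8* (chr5:116422815-116423114, − strand): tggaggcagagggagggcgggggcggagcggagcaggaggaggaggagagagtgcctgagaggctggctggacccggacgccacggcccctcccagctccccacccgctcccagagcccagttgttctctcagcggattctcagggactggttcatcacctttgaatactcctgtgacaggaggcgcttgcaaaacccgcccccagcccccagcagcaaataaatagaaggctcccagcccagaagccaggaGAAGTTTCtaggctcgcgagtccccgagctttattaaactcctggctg
The *Hspb1* window held 2 matches, starting 117 and 97 bases before the start site, and the *Hspb8* window held 1, starting 2 bases after it. The letters occurred in 2582 of 32851 such windows (7.86%), and they did not occur in either of the 2 windows listed for *Dnajb1*.

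Among small heat shock proteins, 7 of 9 listed genes were tested, and *Hspb7* and *Hspb9* had too few reads. Of the 7, 2 had an unadjusted p under 0.05, both higher (beside 3.22% of all genes), and 0 were lower, and the counts were equal with the Y-linked covariate. The median log2 fold change was −0.06 beside 0.00014 over all genes. *Hspb8*, a partner of the co-chaperone BAG3, had 3.78, 3.91 and 6.10 CPM in *FVB/N* and a lowest, median and highest value of 6.01, 6.71 and 7.54 CPM in the transgenic pools. The lowest transgenic pool overlapped *FVB/N* replicate 3, and the log2 fold change was 0.56 ± 0.16 (SE, adjusted p = 0.439, edgeR). *Cryaa*, the αA-crystallin gene, ran from 146498 to 152247 CPM in *FVB/N* and from 127846 to 157938 CPM in the transgenic pools, which contained the *FVB/N* range. The other 4 members had log2 fold changes between −0.11 and 0.02.

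Of 20 chaperones and heat shock factors outside that family 19 were tested, with 1 higher at an unadjusted p under 0.05 (beside 3.22% of all genes), 0 lower and a median log2 fold change of 0.04. *Dnajb1*, a heat-inducible HSP40 co-chaperone on chromosome 8 from 83608193 to 83612653, was the one with the low p. It had 276, 246 and 254 CPM in *FVB/N* and a lowest, median and highest value of 283, 351 and 384 CPM in the transgenic pools. The groups did not overlap, and the log2 fold change was 0.43 ± 0.09 (SE, adjusted p = 0.284, edgeR), with 0.36 in *P0-3.9GFPCre* and 0.49 in *Le-Cre*. It was 0.27 with the Y-linked covariate. *Dnajb4* had a log2 fold change of 0.19 and *Hsp90ab1* one of 0.09, with adjusted p-values of 0.814 and 0.843 in edgeR. The strongly heat-inducible *Hspa1a* and *Hspa1b* had at most 12 and 17 counts in any pool. Without *P0-3.9GFPCre* replicate 2, 3 chaperone genes had an unadjusted p under 0.05, beside 1157 of 15437 genes in either direction in that fit. This count was added after seeing the data and is description only.

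*Stk40*, on chromosome 4 from 126103957 to 126141029, was named after its values were seen, because its adjusted p passed. It had 15.2, 13.5 and 15.6 CPM in *FVB/N*, 20.2, 21.5 and 22.2 CPM in *P0-3.9GFPCre* and 21.5, 22.1 and 21.9 CPM in *Le-Cre*. The 6 transgenic pools formed a narrow band above the controls. The log2 fold change was 0.55 ± 0.07 (SE, 1.46-fold, adjusted p = 0.0400, edgeR), and the lines differed by 0.04 (adjusted p = 0.950, edgeR). The adjusted p did not pass in other edgeR fits, at 0.474 with the Y-linked covariate (log2 fold change 0.52), 0.0709 with 1 coefficient per line, 0.179 with the replicate number as a block and 0.0997 to 0.293 without any single pool other than *P0-3.9GFPCre* replicate 2.

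A further 23 genes were named by rank of p among those whose 6 transgenic pools all lay on 1 side of *FVB/N* and whose line means each differed at least 1.5-fold. Of these, 17 were higher and 6 lower, and 71 genes in all qualified as higher and 33 as lower, *Hspb1* and *Xist* or Y-linked genes included. Many of them were scarce transcripts, since 48 of the 71 and 13 of the 33 averaged under 1 CPM in *FVB/N*. Non-overlap and fold were part of that choice and are description only, and none of the 23 reached an adjusted p of 0.05. With the Y-linked covariate, *Hspb1* and the 23 all kept their sign with an unadjusted p under 0.05. They had been chosen by p in the same pools, so this too is description only. The smallest adjusted p of any gene in that fit was 0.0979 in edgeR.

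The higher genes included the channels *Kcnj10* and *Ryr3*, the anoctamin *Ano3* and the receptor *Ptgfr*. *Kcnj10*, the inward-rectifying potassium channel Kir4.1 on chromosome 1 from 172341210 to 172374085, had 1.59, 1.63 and 1.52 CPM in *FVB/N* and a lowest, median and highest value of 2.47, 3.80 and 4.57 CPM in the transgenic pools. Its log2 fold change was 1.21 ± 0.22 (SE, adjusted p = 0.201, edgeR), with 1.15 in *P0-3.9GFPCre* and 1.26 in *Le-Cre*. *Ptgfr*, the prostaglandin F receptor, had 35.6, 32.5 and 26.9 CPM in *FVB/N* and 39.1, 49.8 and 68.9 CPM as lowest, median and highest in the transgenic pools, a log2 fold change of 0.71 (adjusted p = 0.284, edgeR). *Ryr3*, a calcium release channel of the endoplasmic reticulum, had a log2 fold change of 0.99 (adjusted p = 0.320, edgeR), and it overlaps *Aven* on the opposite strand. *Ano3* had 0 counts in all 3 *FVB/N* pools, 2, 3 and 12 in the *P0-3.9GFPCre* pools and 13, 28 and 21 in the *Le-Cre* pools. Against a floor of 3 counts over the *FVB/N* pools together, *Ano3* was at least 13.6-fold higher in the 6 transgenic pools as 1 group. Most of the counts came from the *Le-Cre* pools, and the value is not a bound for *P0-3.9GFPCre* alone.

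*Cdkn1a*, *Dusp4* and *Ddias* were also among them. *Cdkn1a*, on chromosome 17 from 29090976 to 29100727, had 1.29, 1.20 and 1.19 CPM in *FVB/N*, 3.74, 1.502 and 5.75 CPM in *P0-3.9GFPCre* and 11.4, 11.04 and 11.8 CPM in *Le-Cre*. All 6 transgenic pools stood above the controls, *P0-3.9GFPCre* replicate 2 only narrowly. The log2 fold change was 2.62 ± 0.58 (SE, 6.15-fold, adjusted p = 0.287, edgeR), with 1.58 in *P0-3.9GFPCre* (adjusted p = 0.588, edgeR) and 3.21 in *Le-Cre* (adjusted p = 0.0331, edgeR). The direct difference between lines was 1.63 ± 0.33 (SE, unadjusted p = 0.00039, adjusted p = 0.292, edgeR). Without *P0-3.9GFPCre* replicate 2 the log2 fold change of both lines together was 2.83 and its adjusted p 0.0301 in edgeR, and with the Y-linked covariate it was 1.95 with an adjusted p of 0.891. *Dusp4*, a phosphatase that switches off ERK, had 11.3, 10.4 and 7.82 CPM in *FVB/N* and 13.0, 16.7 and 19.98 CPM as lowest, median and highest in the transgenic pools, a log2 fold change of 0.74 (adjusted p = 0.284, edgeR). *Ddias*, an anti-apoptotic gene linked to DNA damage, had a log2 fold change of 1.07 (adjusted p = 0.350, edgeR).

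The 6 lower genes were *Clic5*, *St6galnac3*, *Draxin*, *Ccdc117*, *Xlr3a* and *Cdh3*. *Clic5*, a chloride intracellular channel protein linked to actin, lies on chromosome 17 from 44188584 to 44280172. It had 21.2, 17.7 and 19.0 CPM in *FVB/N* and a lowest, median and highest value of 10.2, 12.2 and 13.5 CPM in the transgenic pools. Its log2 fold change was −0.70 ± 0.10 (SE, adjusted p = 0.0692, edgeR), with −0.76 in *P0-3.9GFPCre* and −0.65 in *Le-Cre*. DESeq2's Wald test gave it an adjusted p of 1.476e-05. *St6galnac3*, a sialyltransferase, had a narrow *FVB/N* range of 7.86 to 7.94 CPM and ran from 3.66 to 5.86 CPM in the transgenic pools (log2 fold change −0.70, adjusted p = 0.284, edgeR). *Cdh3*, which encodes P-cadherin, ran from 1.76 to 2.49 CPM in *FVB/N* and from 0.543 to 1.21 CPM in the transgenic pools (log2 fold change −1.17, adjusted p = 0.334, edgeR). *Draxin*, a secreted guidance protein and Wnt antagonist, and *Ccdc117* had log2 fold changes of −0.77 and −0.78, but *FVB/N* replicate 3 stood high for both, with 19.5 against 10.9 and 12.2 CPM for *Draxin* and 150 against 79.7 and 81.4 CPM for *Ccdc117*. Without that pool they were −0.47 and −0.41.

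Several of the 23 have counts that are less certain. *Gm13910*, a processed pseudogene (log2 fold change 2.87, adjusted p = 0.0922, edgeR), had 5 to 89 counts per pool, and the uncertainty that RSEM gave for dividing its reads among similar sequences came to 46.2% of its counts. For *Cd72* the same share was 47.2%, for *Gm13610* 23.1%, for *Sbspon* 12.6% and for the multicopy *Xlr3a* 10.1%, against 0.366% for *Hspb1*. *Gm13883*, *Gm29054* and *Gm13610* overlap *D430041D05Rik*, *Hmgn3* and *Prrc2b* on the opposite strand, and reads of such pairs cannot be told apart where strand was not recorded. The same holds, among others, for *Cd72* with *Tesk1*, *Draxin* with *Mad2l2* and *Ptgfr* with *Gm43618*. Of genes described below, it holds for *Dnase2b* with *Uox*, *Junb* with *Prdx2* and *Maf* with *Gm15655*. The remaining higher genes were *Tex14* (0.90 on the log2 scale), a gene of germ cell bridges, *Gm14005* (0.79), a long non-coding RNA, *Gm37903* (0.68), and *Ldoc1*, with 2 counts over the *FVB/N* pools together.

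**Figure D3:**
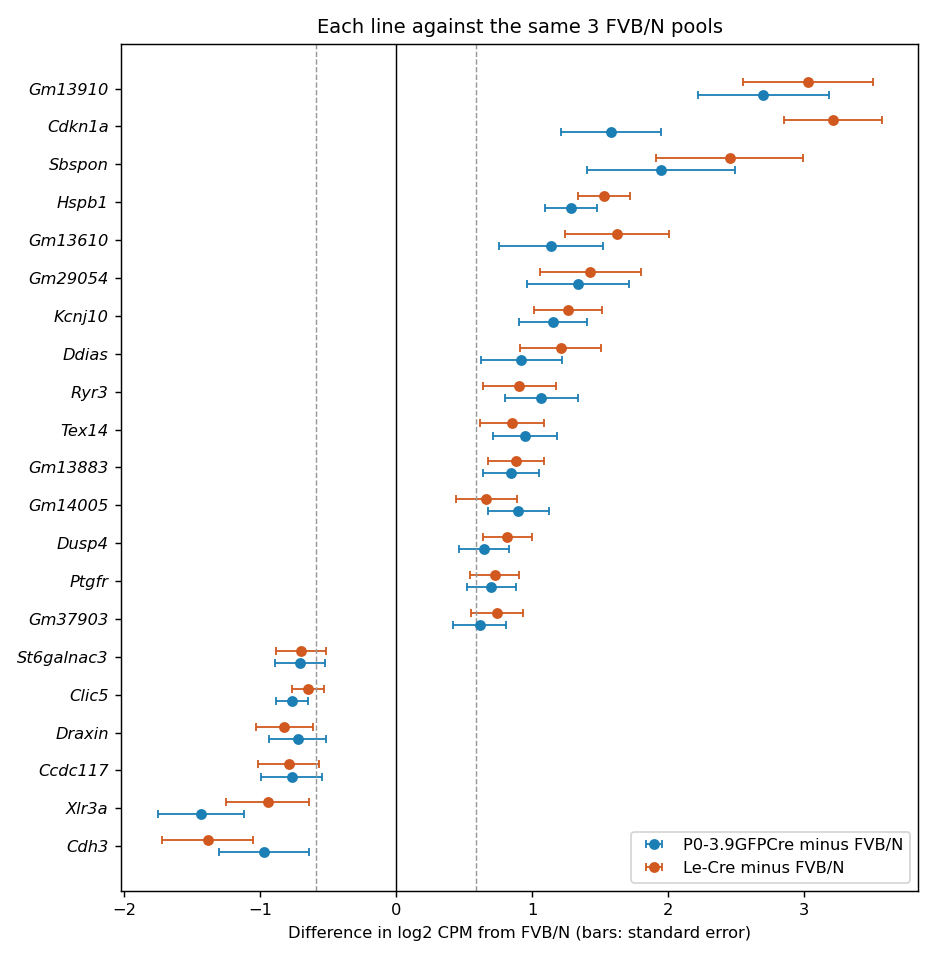
Difference from *FVB/N* in log2 CPM (horizontal axis) of each line, with its standard error, for the 21 of 24 named genes with at least 10 counts over the *FVB/N* pools. Both lines are set against the same 3 pools, the dashed lines mark 1.5-fold, and of the genes shown only *Cdkn1a* has points more than 1 log2 unit apart.

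The 24 genes ranked by this rule were compared directly between the lines as well. The 23 besides *Hspb1* had been chosen by small p and with both line means at least 1.5-fold from *FVB/N* on 1 side. That choice favours genes with small differences between the lines, so the sizes given here are description only. The difference in log2 CPM, *Le-Cre* minus *P0-3.9GFPCre*, had a median of 0.11 and ran from −0.41 (*Cdh3*) to 1.69 (*Ano3*), and 20 of 24 were under 0.5 in size. The change from *FVB/N* was larger in *Le-Cre* for 18 of the 24. Of the 24, 2 had an unadjusted p under 0.05, and the smallest adjusted p was 0.292, that of *Cdkn1a*. Over all 15557 genes, 1226 (7.88%) had an unadjusted p under 0.05 between the lines and 0 had an adjusted p of at most 0.05 in edgeR, whereas DESeq2's Wald test gave 56. *P0-3.9GFPCre* replicate 2 was the transgenic pool closest to *FVB/N* for 12 of the 24 genes, *P0-3.9GFPCre* replicate 1 for 6, and *Le-Cre* replicate 2 for 0.

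Of 32 listed p53 target genes, all were tested, 26 had a positive log2 fold change, 11 were higher at an unadjusted p under 0.05 (beside 3.22% of all genes) and 0 lower. The median log2 fold change was 0.21, with 0.11 in *P0-3.9GFPCre* and 0.26 in *Le-Cre*, beside 0.00014 over all genes. In 5 of the 32 all transgenic pools lay above *FVB/N* (beside 1.66% of all genes). These were *Cdkn1a*, *Eda2r*, *Perp*, *Trp53inp1* and *Aen*, the last 3 named after their values were seen. With the Y-linked covariate 5 were higher at an unadjusted p under 0.05 and the median was 0.05. The list holds genes that earlier results of these data had singled out, so its direction is not independent evidence.

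*Eda2r*, a death-domain receptor on the X chromosome, had 0.227, 0 and 0.246 CPM in *FVB/N*, 0.494, 0.533 and 0.898 CPM in *P0-3.9GFPCre* and 2.21, 1.72 and 2.44 CPM in *Le-Cre*. Over both lines the log2 fold change came to 3.07 ± 0.79 (SE, adjusted p = 0.379, edgeR) at counts of 0 to 62 per pool, and the *Le-Cre* pools were the highest. *Perp*, which encodes a desmosomal membrane protein, had 16.8, 15.2 and 17.5 CPM in *FVB/N* and 18.0, 23.6 and 26.1 CPM as lowest, median and highest in the transgenic pools (log2 fold change 0.44, adjusted p = 0.417, edgeR). *Trp53inp1*, a cofactor in p53-dependent stress responses, had 5.32 to 6.11 CPM in *FVB/N*, 6.42 to 7.65 CPM in *P0-3.9GFPCre* and 10.7 to 14.0 CPM in *Le-Cre*. *Zmat3*, an RNA-binding p53 target, had a log2 fold change of 0.34 (adjusted p = 0.415, edgeR), and its pools overlapped *FVB/N* at 22.3 CPM. *Trp53* itself had a log2 fold change of 0.22 (adjusted p = 0.712, edgeR).

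Cell cycle genes had a median log2 fold change of 0.18 over 25 tested, with 8 higher at an unadjusted p under 0.05 (beside 3.22% of all genes) and 0 lower. *Cdk1*, the kinase that drives mitosis and also takes part in fibre cell denucleation, had 22.2, 21.6 and 25.6 CPM in *FVB/N* and 26.7, 30.2 and 31.2 CPM as lowest, median and highest in the transgenic pools. It was the only member whose groups did not overlap (log2 fold change 0.36, standard error 0.08, adjusted p = 0.284, edgeR). *Rrm2*, a ribonucleotide reductase subunit, had a log2 fold change of 0.35, *Bub1*, a spindle checkpoint kinase, one of 0.53 and *Mki67*, a proliferation marker named after its values were seen, one of 0.22. With the Y-linked covariate 1 of the 25 was higher at an unadjusted p under 0.05 and the median was 0.06. Without *P0-3.9GFPCre* replicate 2 the number whose groups did not overlap was 8. The share over all genes was not counted in that setting, and non-overlap is easier to reach with 1 pool fewer.

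The other stress and death lists each had 0 to 3 higher and 0 or 1 lower members at an unadjusted p under 0.05, the level used for all counts here, beside 3.22% of all genes higher and 3.37% lower. Among 24 tested NRF2 and oxidative stress genes, 3 were higher, 0 were lower and the median was 0.05. *Hmox1*, haem oxygenase, had 125, 141 and 198 CPM in *FVB/N* and 188, 250 and 292 CPM as lowest, median and highest in the transgenic pools. *P0-3.9GFPCre* replicate 2 fell within the *FVB/N* range, and the log2 fold change was 0.67 (adjusted p = 0.284, edgeR). *Gstp1*, a glutathione transferase, had a log2 fold change of 0.33 and *Ephx1*, an epoxide hydrolase, one of 0.69, with adjusted p-values of 0.355 and 0.471 in edgeR. Of 17 tested genes of the unfolded protein and integrated stress response, 2 were higher, *Sesn2* (0.39) and *Herpud1* (0.22), and the median was −0.01. Without *FVB/N* replicate 2 *Herpud1* was at 0.13 with an unadjusted p of 0.159 in edgeR. Of 22 apoptosis genes, *Birc5*, an inhibitor of apoptosis that also serves in mitosis, was higher (0.28) and *Bmf*, a pro-apoptotic BH3-only gene, was lower (−0.53). DNA damage and repair genes had 1 of 20 higher, which was *Trp53*, and 0 lower. Interferon and DNA sensing genes had 0 of 12 in either direction, and immediate early genes had 1 of 11, *Junb*, higher with a log2 fold change of 0.62. *Junb* ranged from 1.47 to 3.18 CPM in *FVB/N*, and without *FVB/N* replicate 3 its log2 fold change was 0.39 (unadjusted p = 0.0898, edgeR) and without replicate 1 it was 0.96. Once the Y-linked covariate was added, the NRF2 list had 3 higher, but *Ephx1* was not among them (0.46, unadjusted p = 0.0706, edgeR). The other 5 of these lists had 0 in either direction. In that fit *Sesn2* was at 0.21, *Herpud1* at 0.12, *Birc5* at 0.18 and *Bmf* at −0.19.

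The 16 crystallins had 0 members at an unadjusted p under 0.05 in either direction, with log2 fold changes from −0.15 to 0.15 and a median of −0.05. With the Y-linked covariate 6 of the 16 were lower at that level, with a median of −0.17. *Pax6*, whose promoter fragments drive both transgenes, had 133, 135 and 126 CPM in *FVB/N* and 125, 134 and 143 CPM as lowest, median and highest in the transgenic pools. The groups overlapped, with a log2 fold change of 0.04 ± 0.06 (SE, adjusted p = 0.951, edgeR). Of 20 lens transcription factors 0 were higher and 1 was lower at an unadjusted p under 0.05 (beside 3.37% of all genes), *Maf*, which controls fibre differentiation, with a log2 fold change of −0.20 (adjusted p = 0.700, edgeR). *Foxe3*, a factor of the lens epithelium, had a log2 fold change of −0.30 (adjusted p = 0.815, edgeR). *FVB/N* replicate 3 was the highest pool for both, and without it *Maf* was at −0.08 and *Foxe3* at −0.081. In the fit with the Y-linked covariate *Maf* was at −0.22 and *Foxe3* at −0.53.

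Of 19 epithelial genes 1 was higher at an unadjusted p under 0.05, the water channel *Aqp1* (log2 fold change 0.59), and 1 lower, the receptor *Notch2* (−0.20), beside 3.22% and 3.37% of all genes. In 2 members, *Cdh1* (−0.12) and *Col4a1* (−0.09), both named after their values were seen, all transgenic pools lay below *FVB/N* (beside 1.85% of all genes). Without *P0-3.9GFPCre* replicate 2 the number was 5, and the share over all genes was not counted in that setting. With the Y-linked covariate 0 were higher and 1 lower, which was *Foxe3* (−0.53, unadjusted p = 0.0193, edgeR). In that fit *Aqp1* was at 0.17 (unadjusted p = 0.545, edgeR) and *Notch2* at −0.13 (unadjusted p = 0.261, edgeR).

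Genes of fibre cell structure and denucleation had 3 of 18 higher and 2 lower at an unadjusted p under 0.05 (beside 3.22% and 3.37% of all genes). The numbers were equal with the Y-linked covariate, but the 2 lower genes were not the same 2. Of the 18, 5 had a positive and 13 a negative log2 fold change, with a median of −0.05. In 3 each all transgenic pools lay above or below *FVB/N* (beside 1.66% and 1.85% of all genes). *Dnase2b*, the enzyme that degrades fibre cell DNA when nuclei are lost, had 121, 131 and 147 CPM in *FVB/N* and 80.7, 103 and 109 CPM as lowest, median and highest in the transgenic pools. Its log2 fold change was −0.41 ± 0.09 (SE, adjusted p = 0.284, edgeR). *Caprin2*, an RNA granule protein of the lens, had 1389, 1336 and 1357 CPM in *FVB/N* and 1505, 1678 and 1793 CPM as lowest, median and highest in the transgenic pools, a log2 fold change of 0.28 (adjusted p = 0.314, edgeR). Others without overlap, named after their values were seen, included *Cdk1* and *Hmgn3* (0.15) above and the gap junction gene *Gja3* (−0.11) below. With the Y-linked covariate *Gja3* had an unadjusted p of 0.102 in edgeR.

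**Figure D4:**
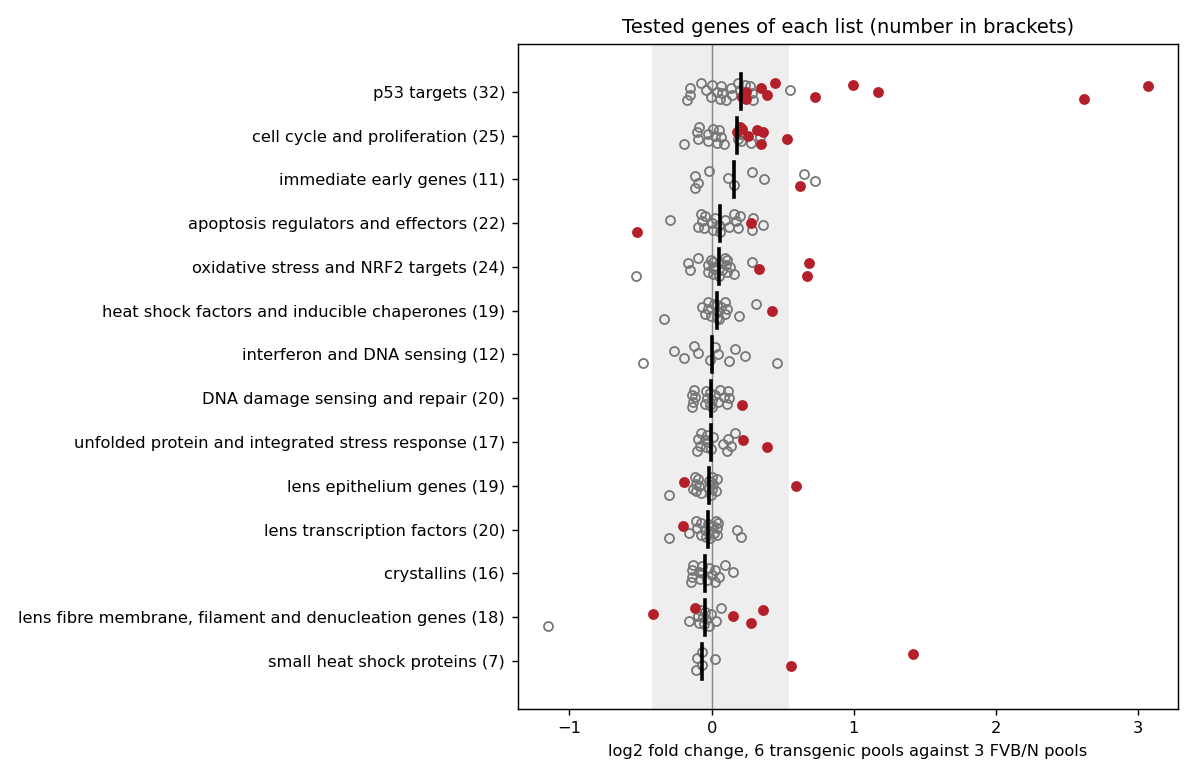
log2 fold change of the 6 transgenic against the 3 *FVB/N* pools (horizontal axis) for each tested gene of 14 lists, filled red where the unadjusted p was under 0.05, with the list median as a black bar and the central 90% of all tested genes in grey. p53 targets and cell cycle genes have the highest medians, at 0.21 and 0.18, and crystallins have no filled point.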

How the data were processed

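RNA-Seq libraries of polyadenylated RNA were analysed from 9 pools of newborn lenses, with groups and replicate numbers taken from the sample labels. The authors trimmed single-end reads with Trimmomatic 0.36, aligned them to the GRCm38 assembly by GSNAP and used RSEM 1.3.0 for gene abundance. The annotation release is not given in the sources used here. The deposited expected counts are RSEM estimates that are not normalized, the deposited TPM values are scaled for length and were not tested, and the deposited posterior standard deviation of each count is a score of read-sharing uncertainty. Strand was not stated. 1 *FVB/N* label carried a number that differed from its title, and the title was used.

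Of 47729 identifiers, 47310 matched GENCODE M21, the source of coordinates. Expected counts were rounded and tested in R 4.3.3 with edgeR 4.0.16 (TMM, filterByExpr, glmQLFit and glmQLFTest), with 1 coefficient for transgenic against *FVB/N* pools and Benjamini-Hochberg adjustment over 15557 genes. CPM are scaled to TMM library sizes. The difference between lines came from a fit with 1 coefficient per line. The scripts were tested on simulated data. The pools of the most similar pair differed by more than counting error. Pools were the replicates, so each p-value sets a difference against the spread between pools. In the main fit the difference between the lines was part of that spread, and each line was 1 strain. Named genes were those past the cutoff, then those ranked by p without overlap and with both line means at least 1.5-fold away to a total of 24, then the 3 smallest p-values of each list, with *Hspb1*, *Cdkn1a* and *Pax6*. The comparison, gene lists and tests were chosen with earlier results of these data known. Alternatives were RLE scaling, scaling without crystallins, no filter or a mean of at least 10 counts, DESeq2 1.42.0, 1 coefficient per line, the replicate block, a Y-linked covariate and leaving out each pool. List counts without *P0-3.9GFPCre* replicate 2 were added after seeing the data. For 1 listed gene, single values are not reported here.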

Additional observations from a re-analysis of the deposited data

Results flagged for a closer look

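In 3 of the genes described, 1 of the 6 transgenic pools stood apart from the others by more than Dixon's 95% limit of 0.625 for the gap to the nearest pool over the whole range. *P0-3.9GFPCre* replicate 2 was the highest transgenic pool for *Bnip3*, at 131 CPM with the next at 110 CPM, and the lowest for *Sbspon*, at 0.339 CPM with the next at 1.19 CPM. In both it was the transgenic pool nearest to *FVB/N*. *P0-3.9GFPCre* replicate 1 was the lowest for *Stk40*, at 20.2 CPM with the next at 21.5 CPM. Chance flags about 1 in 20 groups of this kind. Beside the 69 genes followed through the alternative fits, 3 flags are near that share, so they are description only.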

How the results depend on the processing

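The count of 1 gene past the cutoff was the same with RLE scaling, with crystallins left out of the scaling, with a mean of at least 10 counts and with line means on either side, and the gene was *Hspb1* each time. It was 2 without a fold cutoff, 3 without the filter on low counts (*Hspb1*, *Clic5* and *Gm13910*) and 30 by DESeq2's Wald test, of which 19 were among the 24 named genes. In edgeR it was 0 with 1 coefficient per line averaged (1121 genes at an unadjusted p under 0.05) and 0 with the Y-linked covariate (834 genes). Leaving out 1 pool gave 0 to 9 genes. The value of 9 came without *P0-3.9GFPCre* replicate 2 (7 higher and 2 lower, *Hspb1* included), and every other omission gave 0, with 864 to 1093 genes at an unadjusted p under 0.05. Between the lines, the number of the 24 genes with an adjusted p of at most 0.05 was 0, but 1 without the filter and 1 by DESeq2, *Cdkn1a* in both. Leaving out any 1 transgenic pool gave 0. Over all genes, that comparison gave 0 in edgeR, 34 with only the 6 transgenic pools fitted, 173 without the filter and 56 by DESeq2.

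The replicate numbers did not pair the pools, since deviations of same-numbered pools had a mean correlation of 0.03 (−0.10 to 0.12 over 9 pairs) against −0.01 for others. With the replicate block, 1 gene passed the cutoff, *Hspb1*, and 0 of the 24 differed between lines. Over 69 genes, most of them named in the text, and 17 alternatives, the log2 fold change kept its sign wherever a value could be had, 26 values came to pass the cutoff and 10, all of *Hspb1*, no longer did. The fits rest on 3 control pools, and a gene that missed the cutoff is not shown to be unchanged.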

Other observations

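Genes that the hypoxia-inducible factor (HIF) is known to induce were examined as well, from a list of 45 textbook targets written down after some of their values had been seen, so that no test was made of it. Of 43 tested, 36 had a negative log2 fold change, 16 were lower at an unadjusted p under 0.05 and 1 was higher, beside 3.37% and 3.22% of all genes. The median was −0.15, with −0.10 in *P0-3.9GFPCre* and −0.21 in *Le-Cre*. In 11 genes all 6 transgenic pools lay below *FVB/N* (beside 1.85% of all genes). With the Y-linked covariate 9 were lower and 1 higher at that level, beside 834 of 15557 genes in either direction in that fit. Without *P0-3.9GFPCre* replicate 2 there were 21 and 1, beside 1157 of 15437 genes in either direction. The counts without that pool were added after seeing the data and are description only.

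*Bnip3*, which promotes removal of mitochondria, had 158, 147 and 170 CPM in *FVB/N*, 103, 131 and 106 CPM in *P0-3.9GFPCre* and 104, 110 and 106 CPM in *Le-Cre*. The groups did not overlap, and the log2 fold change was −0.53 ± 0.08 (SE, adjusted p = 0.0802, edgeR), or −0.44 with the Y-linked covariate. *Pdk1*, which limits entry of pyruvate into mitochondria, had 115, 118 and 97.9 CPM in *FVB/N* and 77.1, 78.7 and 95.7 CPM as lowest, median and highest in the transgenic pools, a log2 fold change of −0.43 (adjusted p = 0.250, edgeR). *Kdm3a*, a histone demethylase, had 113, 114 and 116 CPM in *FVB/N* and 89.4 to 102 CPM in the transgenic pools, a log2 fold change of −0.27 (adjusted p = 0.267, edgeR). *P4ha1*, a collagen prolyl hydroxylase subunit, had a log2 fold change of −0.28 and *Ndrg1* one of −0.27. *Stc1*, the hormone stanniocalcin, was the member that was higher, at 0.287 to 0.605 CPM in *FVB/N* and 0.658 to 1.25 CPM in the transgenic pools.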
